A study of Mus musculus with 13 samples.

Results

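The 10 genes described here encode core components of mTOR and AKT signalling: Mtor, Rptor, Rictor, Mlst8, Deptor, Akt1, Akt2, Tsc1, Tsc2 and Rheb. They were chosen by name, as the kinase pathway known to act on the RNA-binding protein IMP2, and all 10 were found among the 43629 genes counted. RNA was sequenced in mouse embryonic fibroblasts (MEFs), connective tissue cells grown out of embryos, for which the labels give E12.5 and growth in DMEM with fetal bovine serum. In 9 libraries the RNA came from immunoprecipitation (IP), in which an antibody pulls a protein down with the RNA attached to it: 3 with control IgG, 3 with an antibody to IMP1 (gene Igf2bp1) and 3 with an antibody to IMP2 (gene Igf2bp2). No label names the genotype of the cells used for IP. The other 4 libraries held total RNA, with 1 library each for wild-type (WT) and knockout (KO) cells of IMP1 and of IMP2. The labels do not say how the alleles were made, whether a line is 1 clone, or whether each IP library had its own culture, so p-values measure only the spread between these libraries.

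The mTOR kinase works in a pair of complexes that share Mlst8 and can both bind the inhibitor Deptor. Raptor (Rptor) defines mTORC1, which drives protein synthesis and growth, and Rictor defines mTORC2, which phosphorylates AKT. AKT in turn inhibits the Tsc1-Tsc2 complex, which holds the GTPase Rheb, the direct activator of mTORC1, in its inactive state. IMP2 is a known mTOR substrate, and its phosphorylation by mTOR is known for promoting translation of Igf2 mRNA.

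Gene counts ranged from 11430002 to 21756430 per library, and a count of 0 allows up to 0.138 to 0.262 CPM, the count relative to the library's total of gene counts. In the knockouts, Igf2bp1 went from 32.05 to 3.28 CPM between IMP1 WT and IMP1 KO, and Igf2bp2 from 147.5 to 28.17 between IMP2 WT and IMP2 KO. Reads outside genes made up 24.2% to 25.1% of the reads tallied in IgG IP. Their share was 7.43% to 7.67% with the IMP1 antibody, 4.7% to 5.22% with the IMP2 antibody and 4.43% to 5.1% in total RNA. A single predicted gene, Gm26917, took 10.3% to 11.3% of gene counts in IgG IP. IMP2 IP replicate 1 stood apart from its group, with a chi-square per degree of freedom of 7.7 and 8.07 against replicates 2 and 3, which were 2.75 from each other. Summed fibroblast markers were 35831 to 62263 CPM in total RNA and 19355 to 37155 CPM in IP, where the fibroblast proteoglycan Lum was at 0 to 0.08 CPM. Of the red cell markers, the haemoglobin genes were at 0 in all 13 libraries, and Alas2 was at 3.81 to 4.32 CPM in IgG IP and at most 0.632 elsewhere.

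Apart from the limit for a count of 0, CPM levels above and below are after TMM scaling. This scaling corrects for a few abundant genes taking a large share of a library. The IP libraries and the total RNA libraries were scaled separately, so their CPM are not on a common scale. Changes against total RNA come from a fit that scaled both kinds together. Levels are not compared between genes, because no transcript lengths were used. Fold changes are on the log2 scale with standard errors (SE), and adjusted p-values are from edgeR's quasi-likelihood test over 14076 genes, with a threshold of 0.05. The IMP1 and IMP2 comparisons share the same IgG libraries.

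Messages of the kinase and of the subunits that define its complexes were higher in IMP1 IP and lower in IMP2 IP than in IgG IP. Mtor encodes the kinase itself (chromosome 4, 148448582 to 148557685, GRCm38.p6). Its level was 169.1, 170.2 and 172.5 CPM in the IgG libraries, 261.3, 274.3 and 270.8 in IMP1 IP, and 119.4, 109.8 and 118.6 in IMP2 IP. The 3 groups did not overlap, and every IMP1 library was above and every IMP2 library below all IgG libraries. The log2 change against IgG was 0.66 in IMP1 IP (SE 0.0382, adjusted p = 1.69e-12) and -0.56 in IMP2 IP (SE 0.0393, adjusted p = 2.4e-11).

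Rictor, the scaffold of mTORC2 (chromosome 15, 6708349 to 6800401), had the lowest change in IMP2 IP of the 10 genes. It was at 205.1, 203.1 and 196.1 CPM in IgG, 298.4, 297.8 and 295.5 in IMP1 IP, and 98.34, 110.9 and 111.3 in IMP2 IP. The groups again stood apart, and the SD of the IMP1 libraries was 1.53 CPM. Against IgG, the log2 change was 0.56 in IMP1 IP (SE 0.041, adjusted p = 7.16e-11) and -0.91 in IMP2 IP (SE 0.0427, adjusted p = 2.46e-14). Without IMP2 IP replicate 1, the lowest library, the IMP2 change was -0.83.

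Rptor, which brings substrates to mTORC1 (chromosome 11, 119602905 to 119899591), moved the same way with smaller changes. Its level was 160.6, 169.6 and 168.8 CPM in IgG, 216.8, 213 and 213.5 in IMP1 IP, and 137.3, 126.8 and 139.2 in IMP2 IP. All IMP1 libraries were high and all IMP2 libraries low, with no overlap. The log2 change was 0.37 in IMP1 IP (SE 0.0399, adjusted p = 4.65e-08) and -0.31 in IMP2 IP (SE 0.0403, adjusted p = 4.63e-07).

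Neither Mlst8 nor Deptor followed that pattern. Mlst8, the small subunit common to both complexes (chromosome 17, 24473550 to 24479114), was at 24.47, 23.88 and 24.68 CPM in IgG, 21.57, 23.49 and 21.46 in IMP1 IP, and 26.2, 28.77 and 25.83 in IMP2 IP. The groups were ordered IMP1, IgG, IMP2 without overlap, but the steps were small. Neither step passed the test: the log2 change was -0.14 in IMP1 IP (SE 0.0722, adjusted p = 0.105) and 0.15 in IMP2 IP (SE 0.0683, adjusted p = 0.0573). Without IMP2 IP replicate 1 the IMP2 change was 0.19 and passed (adjusted p = 0.0131), and it also passed without replicate 3. It passed too with total count scaling (0.32) and with no count filter (0.24). Its sign turned with upper quartile scaling (-0.03, adjusted p = 0.674) and with a filter of 10 CPM in 3 libraries (-0.03, adjusted p = 0.72).

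Deptor, an inhibitor of mTOR in both complexes (chromosome 15, 55112317 to 55259273), had 17.7, 18.76 and 16.64 CPM in IgG, 16.31, 15.09 and 15.34 in IMP1 IP, and 11.82, 14.65 and 15.89 in IMP2 IP. Every IP library of either protein was below every IgG library, while the IMP1 and IMP2 libraries overlapped. The IMP2 change of -0.31 passed the test (SE 0.0958, adjusted p = 0.00582), and the IMP1 change of -0.18 did not (SE 0.0981, adjusted p = 0.116). The IMP2 value depended on replicate 1, without which it was -0.18 (adjusted p = 0.0487). With scaling to the total count it was -0.14 and did not pass (adjusted p = 0.2).

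The AKT kinase messages were higher in IMP2 IP, and Akt1 also in IMP1 IP. Akt1, the widely expressed AKT kinase (chromosome 12, 112653821 to 112674884), was at 156.7, 155.2 and 155.5 CPM in IgG, 211.7, 214.6 and 211.7 in IMP1 IP, and 305.5, 267.6 and 268.2 in IMP2 IP. The groups did not overlap, and replicate 1 was the high library within IMP2 IP. The log2 change was 0.45 in IMP1 IP (SE 0.0446, adjusted p = 1.14e-08) and 0.85 in IMP2 IP (SE 0.0438, adjusted p = 1.31e-13), the latter being 0.81 without replicate 1.

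Akt2, the AKT kinase best known for insulin-stimulated glucose uptake (chromosome 7, 27591552 to 27640826), had 30.66, 31.21 and 32.38 CPM in IgG, 32.38, 30.06 and 30.55 in IMP1 IP, and 46.16, 44.3 and 43.77 in IMP2 IP. The IMP2 libraries were all high, and the IMP1 and IgG libraries overlapped. The IMP2 change was 0.51 (SE 0.0568, adjusted p = 4.36e-08) and the IMP1 change was -0.02 (SE 0.0607, adjusted p = 0.798). Akt1 and Akt2 thus shared a direction against IgG in IMP2 IP, while for IMP1 IP only Akt1 passed.

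Among the regulators between AKT and mTORC1, each gene had its own profile. Tsc1, the stabilising partner of the TSC complex (chromosome 2, 28640993 to 28691172), was at 156.2, 163.1 and 152.1 CPM in IgG, 168.7, 179.4 and 183.5 in IMP1 IP, and 107.5, 108.3 and 113 in IMP2 IP. The IMP2 libraries lay far below the others, and the IMP1 libraries lay just above the IgG libraries without overlap. The log2 change was -0.52 for IMP2 (SE 0.0417, adjusted p = 2.28e-10) and 0.17 for IMP1 (SE 0.0412, adjusted p = 0.000855). The IMP1 call was lost with upper quartile scaling (0.0038, adjusted p = 0.942), total count scaling (0.02, adjusted p = 0.67) and a filter of 10 CPM in 3 libraries (0.03, adjusted p = 0.5).

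Tsc2, the subunit that turns Rheb off (chromosome 17, 24595816 to 24632676), had 201.6, 210 and 206.1 CPM in IgG, 309.2, 304.3 and 314.9 in IMP1 IP, and 242.4, 239.9 and 243.8 in IMP2 IP. Both antibodies gave higher levels than IgG in every library, and the IMP1 libraries were the highest. The log2 change was 0.59 in IMP1 IP (SE 0.0334, adjusted p = 1.1e-12) and 0.23 in IMP2 IP (SE 0.0334, adjusted p = 1.5e-06). The IMP2 call was lost with upper quartile scaling (0.06, adjusted p = 0.14) and with the filter of 10 CPM (0.06, adjusted p = 0.0842). The partners Tsc1 and Tsc2 therefore had opposite signs in IMP2 IP under TMM scaling.

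Rheb (chromosome 5, 24802823 to 24842361) was at 58.65, 57.31 and 62.75 CPM in IgG, 64.89, 62.21 and 63.45 in IMP1 IP, and 93.45, 94.75 and 90.25 in IMP2 IP. Its IMP2 libraries were all high, and its IMP1 and IgG libraries overlapped. The log2 change was 0.64 for IMP2 (SE 0.0463, adjusted p = 3.93e-11) and 0.09 for IMP1 (SE 0.0487, adjusted p = 0.11). The IMP1 change passed without IgG replicate 3, the highest IgG library (0.14, adjusted p = 0.0373), and with no count filter (0.15, adjusted p = 0.0268). Its sign turned, without passing, with upper quartile scaling (-0.08), total count scaling (-0.06) and the filter of 10 CPM (-0.05).

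**Figure D1:**
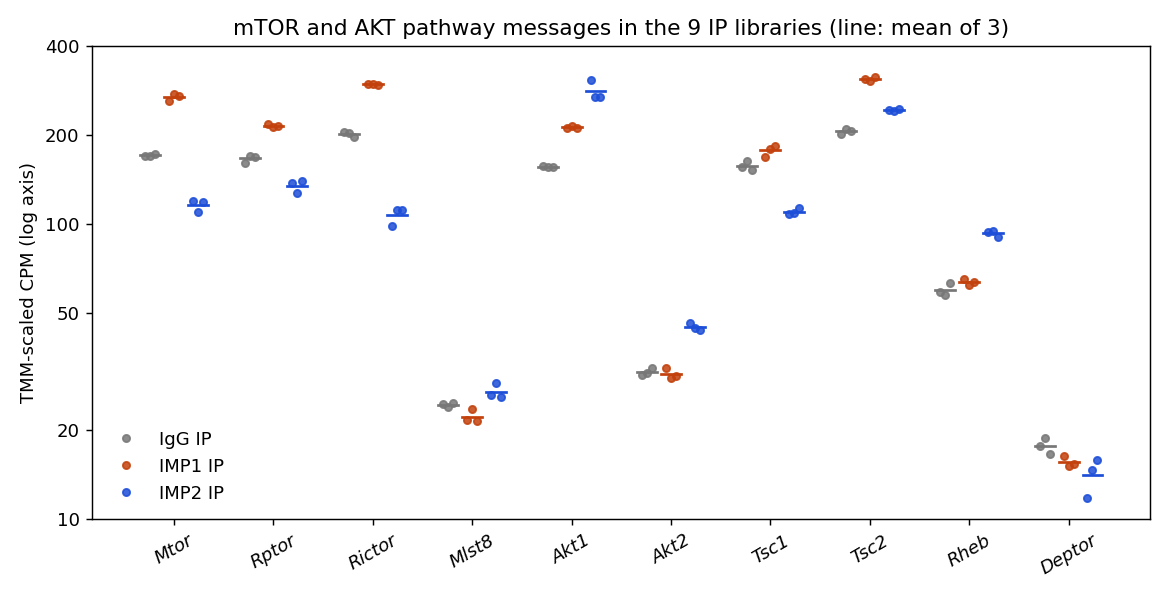
Level of each gene in the 9 IP libraries, as TMM-scaled CPM on a log axis; points are libraries (grey IgG, orange IMP1, blue IMP2) and lines are the means of 3. Orange points lie highest and blue lowest for Mtor, Rptor, Rictor and Tsc1, whereas blue lies highest for Mlst8, Akt1, Akt2 and Rheb.

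**Figure D2:**
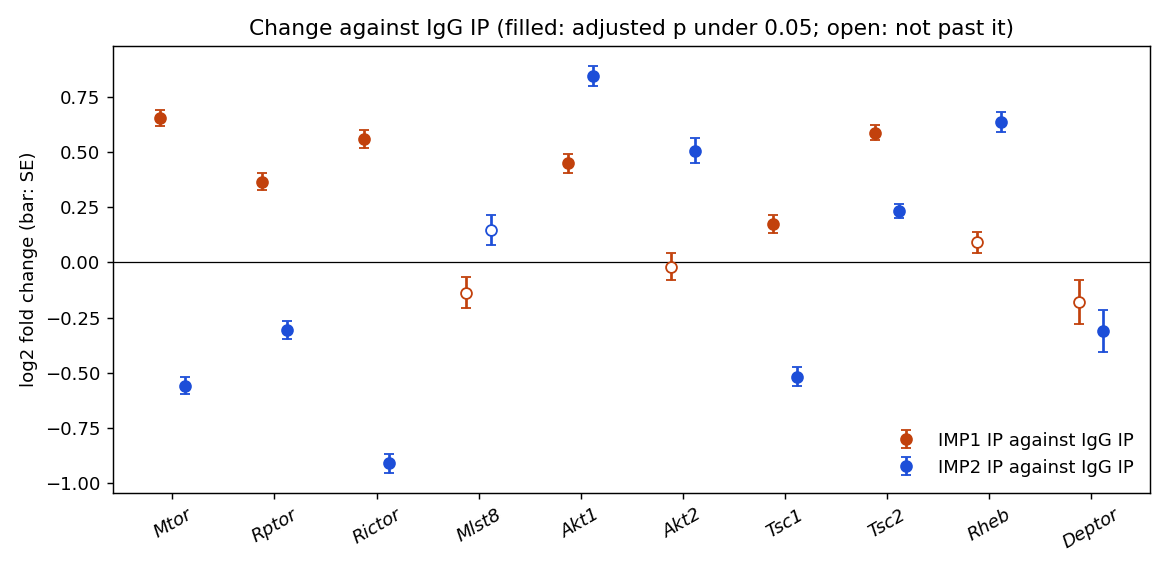
Log2 fold change of IMP1 IP (orange) and of IMP2 IP (blue) against IgG IP for the 10 genes, with bars of 1 SE and filled points where the edgeR adjusted p was under 0.05. Mtor, Rptor, Rictor and Tsc1 lie on opposite sides of 0, from 0.66 to -0.56 for Mtor, and both changes of Akt1 and of Tsc2 lie above 0.

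Against IgG, 6 of the 10 genes were called higher in IMP1 IP (31.7% of all genes tested) and 0 were called lower (31.9% of all genes). With an unadjusted p under 0.05 the count of lower genes was also 0 in edgeR, and DESeq2 and limma voom called 0 as well. The median log2 change was 0.27 for the 10 genes and -0.03 for all genes. In IMP2 IP, 4 were higher (40.3% of all genes) and 5 lower (37.3%), with a median of -0.08 beside 0.04 for all genes. The count of lower genes in IMP1 IP turned on the scaling: 3 genes, Mlst8, Akt2 and Deptor, were called lower with upper quartile or total count scaling. Higher genes made up 49.8% of all calls for IMP1 with TMM scaling, 31.6% with upper quartile and 33.3% with total count scaling. The median of all genes for IMP1 was -0.20 with upper quartile and -0.19 with total count scaling. For IMP2, higher genes were 51.9% of calls with TMM, 39.9% with upper quartile and 62.2% with total count scaling, and the medians of all genes were -0.14 and 0.21 with the latter pair.

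Set directly against each other, the IP groups differed for 9 of the 10 genes. Higher in IMP1 IP than in IMP2 IP were 5 genes (34.1% of all genes were higher), and lower were 4 (37.3%). Differences between the antibodies were thus common over all genes, and the counts are not read as particular to the pathway. Rictor had a log2 difference of 1.47 (SE 0.0417, adjusted p = 1.75e-18), a 2.78-fold higher level in IMP1 IP. Mtor differed by 1.21 (SE 0.0381, adjusted p = 1.01e-17), or 2.32-fold. These lay at percentiles 96.1 and 93.2 of all genes tested. Tsc1 differed by 0.69, Rptor by 0.67 and Tsc2 by 0.35 in the same direction. With total count scaling the Tsc2 difference was 0.03 (adjusted p = 0.448). Rheb was lower in IMP1 IP by -0.55, Akt2 by -0.53, Akt1 by -0.40 and Mlst8 by -0.28. Deptor did not pass, with a difference of 0.13 (SE 0.0944, adjusted p = 0.226). Higher genes made up 47.8% of all calls here and 27.8% with total count scaling, which put the median of all genes at -0.34.

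By genomic span, the 5 genes higher in IMP1 IP covered 36.9 to 296.7 kb and the 4 lower genes 5.57 to 49.3 kb. Span includes introns and is not transcript length, and the part of either in the result was not tested. Several genes overlap another annotated gene: Mtor with Angptl7 over 5282 bases, Rptor with the non-coding Rptoros over 13555, Mlst8 with Bricd5 over 1922, Tsc2 with Pkd1 over 699, Deptor with Gm9920 over 1266 and Akt1 with Gm30150 over 409. These overlaps are of genomic spans, introns included, and are not lengths of shared exons. Reads that were ambiguous between genes were tallied apart and are not in the gene counts. No source used here says whether strand was used in counting, so the effect of these partners on the counts was not tested. No overlapping gene was found for Rictor, Akt2, Tsc1 or Rheb.

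The same libraries were also compared with the total RNA of the 2 wild-type lines, taken as 2 samples of 1 group, over 16157 genes. Against total RNA, 7 of the 10 genes were higher and 3 lower in IMP1 IP (41.4% and 44.7% of all genes), 7 higher and 2 lower in IMP2 IP (39.5% and 41.6%), and 7 higher and 3 lower in IgG IP (43.7% and 44.4%). IgG IP thus showed the same split as IMP1 IP. The median of the 10 genes was 2.18, 1.23 and 1.84 in IMP1, IMP2 and IgG IP, beside -0.03, 0.02 and -0.01 for all genes.

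Tsc1 was highest above total RNA. It was at 23.03 and 23.55 CPM in the IMP1 WT and IMP2 WT libraries, and its log2 change was 3.13 in IMP1 IP, 2.40 in IMP2 IP and 2.91 in IgG IP. Mtor, at 43.76 and 52.67 CPM in the wild types, was higher by 2.68, 1.42 and 1.98 in the same order. Rictor, at 51.44 and 65.29 CPM, was higher by 2.55, 1.03 and 1.94. For these genes IMP1 IP was the farthest above total RNA, IMP2 IP the nearest to it, and IgG IP lay between. Akt1 and Rheb were below total RNA in all 3 groups, IgG IP being the farthest from it. Akt1, at 596.5 and 515.6 CPM in the wild types, was lower by -1.18, -0.83 and -1.68 in IMP1, IMP2 and IgG IP. Rheb, at 214.2 and 185.9 CPM, was lower by -1.45, -0.95 and -1.58. Even in IMP2 IP, where both were above IgG, neither reached the level in total RNA. Akt2 was at 45.71 and 46.39 CPM in the wild types, and its IMP2 IP change of 0.12 did not pass (adjusted p = 0.113). Whether the IP and the total RNA libraries came from the same cells is not given, and the fibroblast markers stand beside these values. By CPM scaled separately in each kind, 7 of 11, including Lum, were lower in every IP library than in every total RNA library. The ranges of the other 4 overlapped. The part of these markers in the values was not tested.

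**Figure D3:**
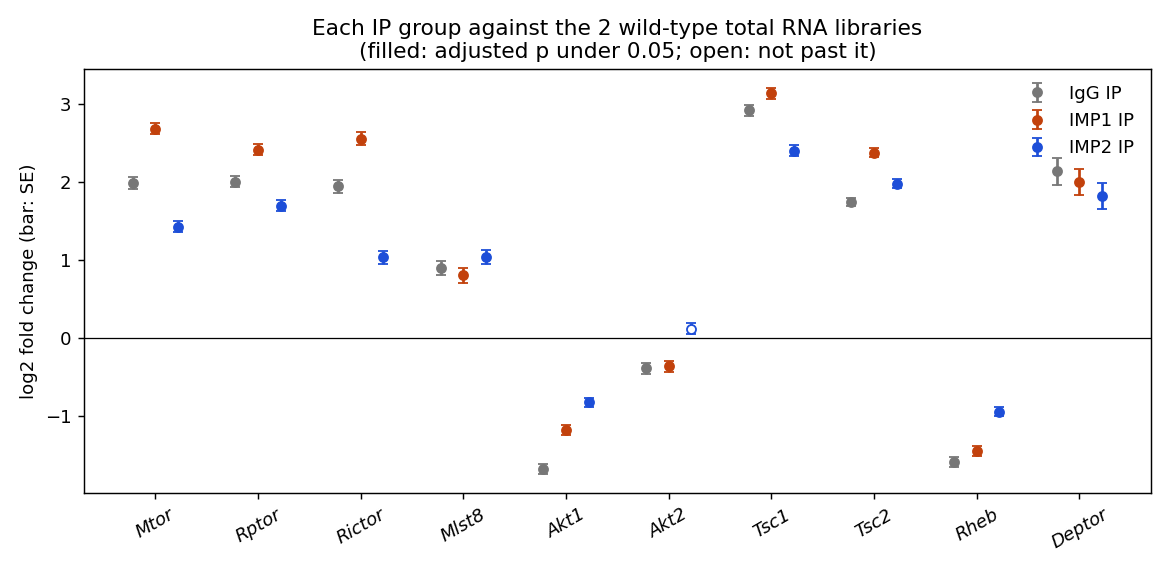
Log2 fold change of each IP group against the 2 wild-type total RNA libraries for the 10 genes, with bars of 1 SE and filled points where the edgeR adjusted p was under 0.05. IgG IP (grey) lies between IMP1 IP and IMP2 IP for Mtor, Rptor, Rictor, Tsc1 and Mlst8, and Akt1 and Rheb lie below 0 in all 3 groups.

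The knockouts ask whether the level of a message changes where the protein is lost. With 1 library per genotype there is no replicate check and no test, and intervals are exact 95% counting intervals of the ratio. Of the 10 genes, only Deptor differed at least 2-fold, and it was higher in both knockouts. At least 2-fold higher were 5.56% of the 9820 genes counted in IMP1 KO and 7.74% of 9943 in IMP2 KO, and at least 2-fold lower were 5.9% and 7.37%. At 1.5-fold, where 12.7% of genes were higher and 11.4% lower in IMP1 KO and 15.2% and 14.6% in IMP2 KO, Rictor in IMP2 KO was the single addition. The median log2 ratio of the 10 genes was -0.08 in IMP1 KO and 0.05 in IMP2 KO, beside 0.02 and -0.01 for all genes.

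Deptor was at 3.37 CPM (50 counts) in IMP1 WT and 28.91 CPM (335 counts) in IMP1 KO, a ratio of 8.59 (interval 6.37 to 11.8). It was at 5.52 CPM (94 counts) in IMP2 WT and 25.36 CPM (415 counts) in IMP2 KO, a ratio of 4.59 (interval 3.67 to 5.81). Both knockout libraries were high and both wild types low, at percentiles 99.4 and 97.1 of all genes counted. The wild types themselves differed, IMP1 WT being 0.61 of IMP2 WT (interval 0.424 to 0.869). Markers of other cell types moved in the IMP2 KO library. Its summed cartilage markers (Sox9, Col2a1 and Acan) were 11058 CPM against 182.6 in IMP2 WT, and its 6 macrophage markers summed to 295.5 against 31.94. Its summed muscle markers, by contrast, were 735.7 CPM against 6166, and its neural markers 59.95 against 211.6. The muscle sum was nearly all Acta2, which ranged from 735.1 to 8324 CPM in total RNA. Des was at most 22.62 CPM there, and Myod1 and Myog at most 0.269 and 0.061, so that sum follows Acta2 alone. Nes led the neural list in total RNA, at 8.0 to 238.9 CPM, and Sox2 was at most 2.87. The part of these markers in the IMP2 KO values of Deptor, of the other members and of the wider lists was not tested. Between IMP1 WT and IMP1 KO the cartilage sum went from 363.8 to 166.9 CPM, the macrophage sum from 23.56 to 11.57, the muscle sum from 8347 to 8313 and the neural sum from 288.8 to 127.6. The epithelial sum, led by Krt19, went from 39.79 to 1.9 CPM in that pair. Between IMP2 WT and IMP2 KO it went from 12.74 to 3.42 CPM. The part of the markers in the IMP1 KO values was not tested either. In bulk RNA, more cells of a type and more RNA per cell cannot be told apart.

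Rictor and Mtor were lower in the IMP2 KO library, where the mTORC2 subunit Mapkap1 had a ratio of 1 (interval 0.931 to 1.08). Rictor was at 65.29 CPM in IMP2 WT and 37.7 in IMP2 KO, a ratio of 0.578 (interval 0.522 to 0.638), and at 51.44 and 41.34 in IMP1 WT and IMP1 KO, a ratio of 0.804 (interval 0.715 to 0.902). Mtor was at 52.67 and 37.83 CPM in IMP2 WT and KO (ratio 0.718, interval 0.647 to 0.797), and at 43.76 and 37.46 in IMP1 WT and KO (ratio 0.856, interval 0.756 to 0.968). Both knockouts were below both wild types for both genes. The wild types also differed, with IMP1 WT at 0.788 of IMP2 WT for Rictor (interval 0.718 to 0.865) and 0.831 for Mtor (interval 0.75 to 0.92). Akt1 was at 350 CPM in IMP2 KO and 515.6 in IMP2 WT (ratio 0.679, interval 0.656 to 0.702), and at 588.9 and 596.5 in IMP1 KO and IMP1 WT (ratio 0.987, interval 0.956 to 1.02). Akt2 had opposite directions, with a ratio of 1.37 (interval 1.248 to 1.505) in IMP2 KO and 0.836 (interval 0.74 to 0.944) in IMP1 KO.

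Rheb had ratios of 0.812 (interval 0.77 to 0.856) in IMP2 KO and 0.888 (interval 0.841 to 0.938) in IMP1 KO, from 185.9 to 151 and from 214.2 to 190.1 CPM. Its 2 wild types differed by a ratio of 1.15. Rptor, Mlst8, Tsc1 and Tsc2 had ratios between 0.904 and 1.15 across both knockouts. Of these 8 ratios, only that of Tsc2 in IMP2 KO, 1.09 (interval 1.01 to 1.18), had an interval without 1. Whether the knockouts differ from each other was not tested, as each has 1 library.

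**Figure D4:**
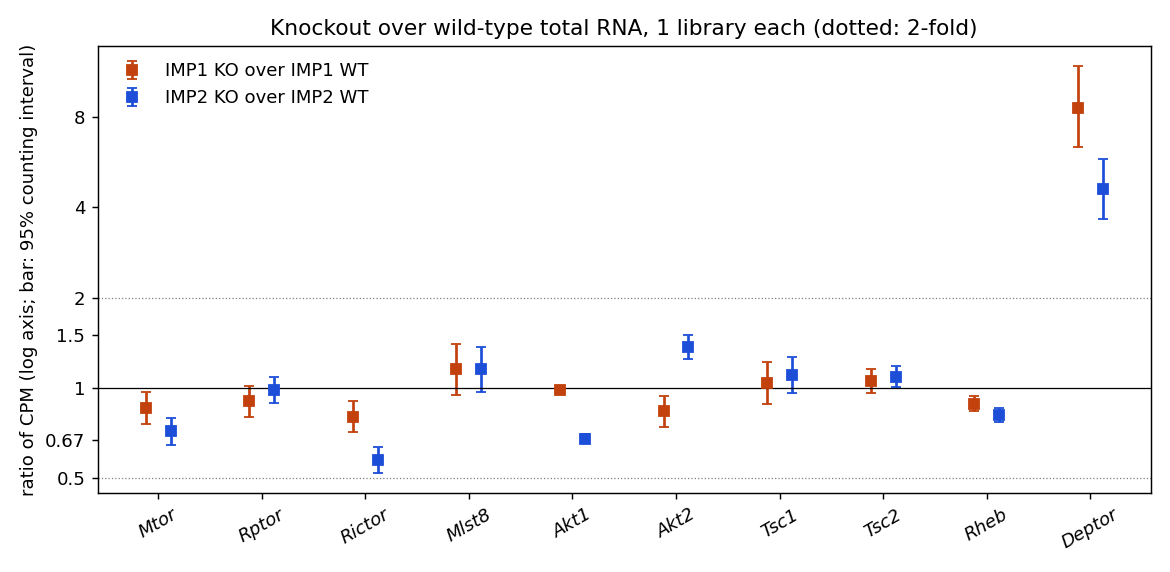
Ratio of CPM in each knockout to its own wild type on a log axis, 1 library each, with 95% counting intervals as bars and dotted lines at 2-fold. Deptor is at 8.59 in IMP1 KO and 4.59 in IMP2 KO, and the other 9 genes lie within 2-fold in both.

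The wider pathway was taken from 5 lists of 89 genes in all. For the other complex subunits, 2 of 8 were higher and 2 lower in IMP1 IP than in IgG, and 3 and 2 in IMP2 IP (5 and 1 with total count scaling). Akt1s1, which encodes the mTORC1 inhibitor PRAS40, had 42.72 ± 1.87 CPM in IgG and 84.43 ± 3.08 in IMP2 IP (SD, n = 3), a log2 change of 0.98. Tbc1d7, the remaining subunit of the TSC complex, was higher in IMP2 IP by 1.15, and Telo2, a chaperone for mTOR-family kinases, was lower by -0.17. In IMP1 IP, Mapkap1, the mTORC2 subunit mSIN1, was higher by 0.34, and Tti1, a partner of Telo2, by 0.17. Mapkap1 was higher in IMP2 IP as well, by 0.47, and Tti1 did not pass there (0.07, adjusted p = 0.265). Directly compared, Mapkap1 was lower in IMP1 IP than in IMP2 IP by -0.13 (adjusted p = 0.0146), unlike Rictor.

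Of 12 genes of AKT regulation, including PI3K, the lipid kinase that recruits AKT, 7 were higher and 2 lower in IMP1 IP (median 0.22), and 2 were higher and 8 lower in IMP2 IP (median -0.20). Phlpp1, an AKT phosphatase, was higher in IMP1 IP by 0.72, and Pik3cb, a catalytic subunit, by 0.65. Phlpp2 was lower in IMP2 IP by -0.89. The regulatory subunit Pik3r1 was lower with both, by -0.34 in IMP1 IP and -0.73 in IMP2 IP, whereas Pik3r2 was higher in IMP2 IP by 0.66. The count lower in IMP2 IP was 5 with total count scaling and 9 with upper quartile scaling. Directly compared, 10 of the 12 were higher in IMP1 IP than in IMP2 IP and 1 was lower, or 5 and 3 with total count scaling.

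Of 37 genes that carry nutrient and energy signals to mTORC1, 15 were higher and 7 lower in IMP1 IP, and 18 higher and 11 lower in IMP2 IP. The balance turned on the scaling: in IMP1 IP it was 8 higher and 14 lower with either upper quartile or total count scaling, and 9 and 13 with the filter of 10 CPM. In IMP2 IP it was 14 and 16 with upper quartile scaling, 23 and 7 with total count scaling, and 13 and 14 with the filter. Prkaa1, a catalytic subunit of the energy sensor AMPK, had 108.1 ± 2.28 CPM in IgG and 243.9 ± 4.7 in IMP1 IP, a log2 change of 1.17, and Fnip1, a partner of folliculin, was higher by 0.77. Ddit4, a stress-induced mTORC1 inhibitor, was lower in IMP1 IP by -0.63. In IMP2 IP Lamtor5, a subunit of the Ragulator that anchors mTORC1 to the lysosome, was higher by 1.28. Slc38a9, a lysosomal arginine sensor, was lower there by -0.69.

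Of 17 mTORC1 substrates and effectors, 5 were higher and 5 lower in IMP1 IP, and 8 higher and 4 lower in IMP2 IP. With upper quartile scaling these were 3 and 9 in IMP1 IP and 6 and 7 in IMP2 IP, and with total count scaling 4 and 8, and 10 and 3. Eif4ebp1, the translation repressor 4E-BP1, was higher in IMP2 IP by 1.08, and Maf1, a repressor of RNA polymerase III, by 0.91. The S6 kinase gene Rps6kb1 was lower there by -0.46, and Rps6kb2 was lower in both, by -0.58 in IMP1 IP and -0.49 in IMP2 IP. The cap-binding factor Eif4e was lower in IMP1 IP by -0.50, where Eif4b and Larp1 were higher by 0.48 and 0.46.

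Of 15 AKT and mTORC2 substrates, 10 were higher and 3 lower in IMP1 IP, and 5 higher and 8 lower in IMP2 IP. With upper quartile scaling 7 were higher and 5 lower in IMP1 IP, and with total count scaling 6 were higher and 5 lower in IMP2 IP. In IMP1 IP, Ndrg1 was higher by 0.83 and Tbc1d4, which restrains glucose transporter traffic, by 0.71. Ndrg1 was higher in IMP2 IP as well, by 0.81, whereas Tbc1d4 was lower there by -0.35. The death promoter Bad moved in opposite directions, by -0.45 in IMP1 IP and 1.03 in IMP2 IP. Cdkn1a, the cell cycle inhibitor p21, was higher in IMP2 IP by 0.93. The AKT-restrained kinase Gsk3b and transcription factor Foxo3 were lower there by -0.45 and -0.53, whereas the related kinase gene Gsk3a was higher by 0.65. Directly compared, IMP1 IP was higher for 2 and lower for 5 of the 8 complex subunits, higher for 14 and lower for 19 of the 37 nutrient and energy genes, higher for 6 and lower for 9 of the 17 mTORC1 substrates, and higher for 8 and lower for 4 of the 15 AKT and mTORC2 substrates. With total count scaling these were 0 and 6, 9 and 25, 3 and 10, and 5 and 9. The shares of all genes given above for each comparison apply to these counts too.

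**Figure D5:**
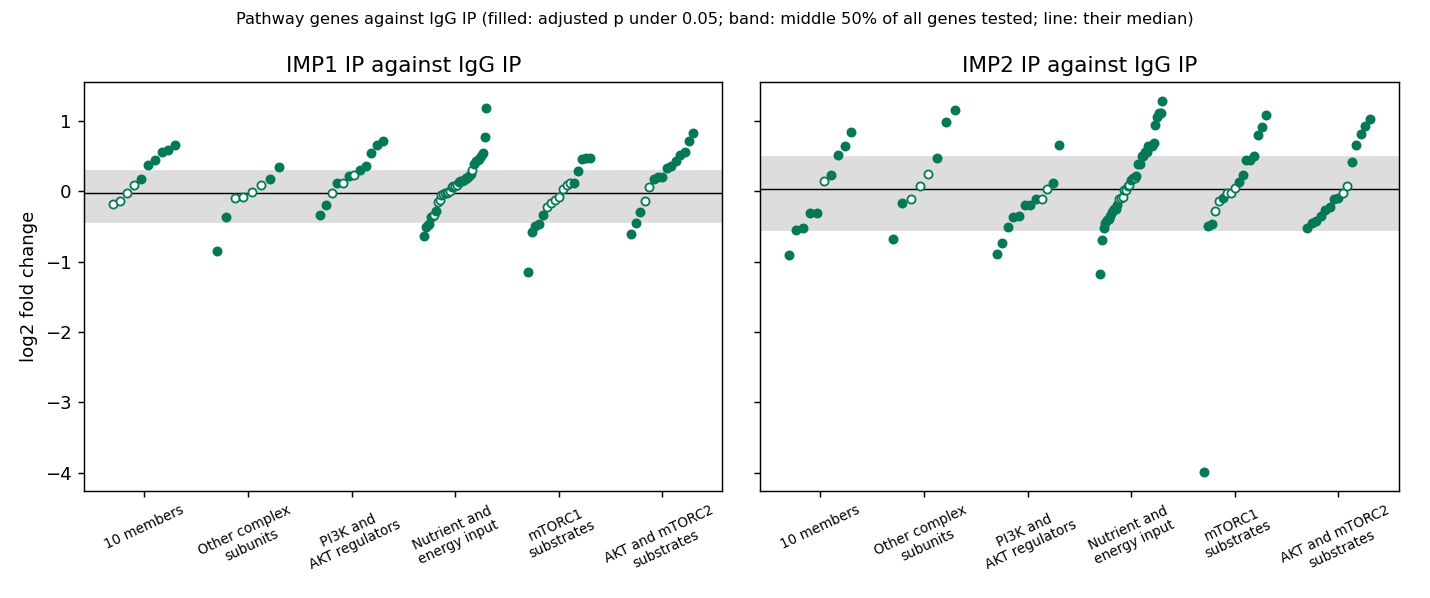
Log2 fold change against IgG IP of every gene in the 10 described and in the 5 wider lists, for IMP1 IP (left) and IMP2 IP (right), filled where the edgeR adjusted p was under 0.05; the band is the middle 50% of all genes tested and the line their median. Most lists have genes above and below the band in both panels, and the PI3K and AKT regulators have 7 of 12 higher at left and 8 of 12 lower at right; the lowest point at right is Eif4ebp3, a gene of low counts.

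In total RNA of the knockouts, Pik3r1 was higher in both, with ratios of 2.28 (interval 2.1 to 2.48) in IMP1 KO and 3.54 (interval 3.33 to 3.76) in IMP2 KO. Cdkn1a was lower in both, with ratios of 0.425 (interval 0.41 to 0.441) and 0.331 (interval 0.32 to 0.343). The mTORC2 subunit Prr5l had a ratio of 4.04 (interval 3.04 to 5.43) in IMP1 KO, and Sgk1, an mTORC2 substrate, one of 0.281 (interval 0.253 to 0.313). In IMP2 KO, Tbc1d4 had a ratio of 5.98 (interval 4.09 to 9.01), Ndrg1 one of 4.57 (interval 4.06 to 5.16), and Mdm2 one of 0.38 (interval 0.357 to 0.403). By list, at least 2-fold higher in IMP1 KO were 1 of 7 complex subunits counted, 1 of 11 PI3K and AKT regulators, 2 of 33 nutrient and energy genes, 1 of 15 mTORC1 substrates and 1 of 14 AKT and mTORC2 substrates. In IMP2 KO these were 0 of 6, 1 of 11, 1 of 33, 1 of 15 and 3 of 14. At least 2-fold lower in IMP1 KO were 1 PI3K and AKT regulator and 2 AKT and mTORC2 substrates, and in IMP2 KO 3 AKT and mTORC2 substrates. Of all genes counted, 5.56% were higher and 5.9% lower by this measure in IMP1 KO, and 7.74% and 7.37% in IMP2 KO.

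Over all 13 libraries, the genes most like Mtor were Kdm3a, Rc3h2 and Phf20, at Euclidean distances of 0.38, 0.42 and 0.43 between centred log2 CPM profiles, against a median of 4.02 over 9026 other genes. Those most like Akt1 were Psmd6, Ehd1 and Atp6v1d, at 0.44, 0.45 and 0.45, against a median of 2.75. Among the 10 genes, the nearest pairs were Mtor with Rictor at 0.58, Akt1 with Rheb at 0.60 and Rptor with Tsc2 at 0.74. Tsc1 and Rheb were the farthest apart, at 6.83. These distances describe the libraries, which share their scaling and differ in kind between IP and total RNA.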

How the data were processed

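The 13 deposited files, 1 per library, hold raw counts of reads per Ensembl gene. Per the submitters' processing notes, the authors used STAR and HTSeq with mm10. Versions, annotation release and strand setting are not given in the sources used here. The tally lines that close each file, including reads outside genes, were kept apart from the 43629 genes. Symbols were found for 42462 genes, and positions came from the RefSeq table of GRCm38.p6. The 10 members and the pathway lists were chosen with earlier results of these data known.

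The 9 IP libraries entered 1 quasi-likelihood fit in edgeR 4.0.16 (R 4.3.3) with TMM scaling, edgeR's expression filter by group, no covariate, 2-sided tests and Benjamini-Hochberg adjustment over all genes tested. A second fit added the 2 wild-type total RNA libraries. The common biological coefficient of variation was 3.84% in the first fit and 5.92% in the second. SE was computed as |log2 fold change| over the root of F. Knockout log2 ratios had a prior count of 2. Counts of 2-fold differences cover genes reaching 10 CPM in either library of the pair. Intervals and the floor of 3 counts cover counting error only. The steps were tested on simulated data.

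The 10 genes are named in every comparison. From each pathway list, named genes came from the 2 highest and 2 lowest called genes whose average log2 CPM reached 3, or the 2 highest and 2 lowest ratios in a knockout. Not every gene this rule names is reported here. Eif4ebp3, Gsk3a and Gm26917 were named after their values were seen. Alternatives were DESeq2 1.42.0, limma 3.58.1 (voom), other scalings and filters, only the libraries compared, a replicate block, each library left out, another prior count, both wild types as reference, and 1.5-fold.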

Additional observations from a re-analysis of the deposited data

Results flagged for a closer look

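Changes against IgG differed between the IMP1 and IMP2 antibodies, by edgeR's direct test of IMP1 IP minus IMP2 IP, for 9 of the 10 genes, where 34.1% of all genes tested were higher and 37.3% lower. The log2 difference was 1.47 for Rictor, 1.21 for Mtor, 0.69 for Tsc1, 0.67 for Rptor and 0.35 for Tsc2. It was -0.55 for Rheb (adjusted p = 2.47e-10), -0.53 for Akt2 (adjusted p = 1.47e-08), -0.40 for Akt1 (adjusted p = 1.89e-08) and -0.28 for Mlst8 (adjusted p = 0.000736). For Mtor, Rptor, Rictor and Tsc1 the members of the pair lay on opposite sides of IgG.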

How the results depend on the processing

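Across 15 alternatives for each IP comparison, Mtor, Rptor, Rictor, Akt1 and Tsc2 kept their sign and their call in IMP1 IP against IgG, and Mtor, Rptor, Rictor, Akt1, Akt2, Tsc1 and Rheb did so in IMP2 IP. The change of Mtor ran from 0.49 to 0.71 in IMP1 IP and from -0.74 to -0.38 in IMP2 IP, and that of Rictor from 0.39 to 0.62 and from -1.09 to -0.74. The count of members lower in IMP1 IP was 0, but 3 with upper quartile scaling, 3 with total count scaling, 3 with at least 10 CPM in 3 libraries and 2 with only the 6 libraries compared. Over all genes, 2952 were higher in IMP1 IP with upper quartile scaling in place of 4457. With the filter of 10 CPM, 3761 were higher and 3479 lower in IMP2 IP in place of 5674 and 5253, as fewer genes were tested. With total count scaling, 2908 were higher in IMP1 IP than in IMP2 IP in place of 4800. At 1.5-fold, 1251 genes were higher and 1119 lower in IMP1 KO (546 and 579 at 2-fold), and 1509 and 1448 in IMP2 KO (770 and 733), with 1 member, Rictor, lower in IMP2 KO. Counts in the wider lists moved by over 1.5 times in 20 cases and stayed within it in 130 for IMP1 IP against IgG (18 and 132 for IMP2 IP). With both wild types as reference, the log2 ratio of Deptor was 2.71 in IMP1 KO and 2.52 in IMP2 KO, and that of Rictor in IMP2 KO was -0.62.

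With the replicate block, members called higher and lower were 6 and 0 in IMP1 IP and 4 and 5 in IMP2 IP, as without it, and 4494 and 4523 genes were called in IMP1 IP. Libraries with the same number correlated from -0.2 to 0.35 over 9 pairs in their deviations from group means, and the 18 other pairs from -0.36 to 0.14. The highest values joined IMP1 and IMP2 libraries, at 0.35 for replicate 1 and 0.31 for replicate 3, but 0.01 for replicate 2. The labels name no shared day or batch, so the numbers were not taken as a pairing. With the block, 4799 genes were higher and 5268 lower in IMP1 IP than in IMP2 IP, in place of 4800 and 5253. The 2 wild-type lines as 1 group, and 1 library per knockout genotype, limit what the total RNA shows.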
